A study of Mus musculus with 37 samples.

Results

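The cytosolic ribosomal protein genes of mouse jejunal organoids were followed across VIP treatment and irradiation. Members were taken by symbol, as genes named Rpl or Rps with a number, together with the stalk genes Rplp0, Rplp1 and Rplp2 and Rpsa, with at least 20 UMIs in a count table and no pseudogene suffix. This gave 84 of the 31533 genes listed in any of the 3 tables, 49 of the large subunit (Rpl) and 35 of the small subunit (Rps), and each of the 84 reached 20 UMIs in all 3 tables. A further 4 symbols, Rpl10l, Rpl3l, Rpl6l and Rps12l1, matched by name and stayed below that minimum, and Rpl39l was not listed. In the annotation, 80 members were protein-coding, and Rps4l, Rpl32l, Rps3a2 and Rps3a3 were pseudogenes, of which Rps4l is marked as transcribed.

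Ribosomal proteins assemble with ribosomal RNA in the nucleolus into the large and the small subunit, which join in the cytosol to translate mRNA. Their own mRNAs begin with a C followed by further pyrimidines, the terminal oligopyrimidine (TOP) tract, through which mTORC1 controls how strongly they are translated. In the intestine, dividing crypt cells carry a heavy load of ribosome production, and some ribosomal proteins are known to bind the p53 regulator Mdm2 when ribosome assembly is disturbed.

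Organoids are crypt-derived epithelial cultures without nerves, immune cells or stroma, and VIP (vasoactive intestinal peptide) is a transmitter of enteric neurons. In the first experiment, whole organoids of C57Bl/6 mice were left untreated (3 mice) or given 100 nM VIP for 72 h (4 mice). In the second, Lgr5-EGFP+ progenitor cells were sorted from untreated or VIP-treated organoids (4 mice each, 72 h) of Lgr5-EGFP-IRES-CreERT2 mice, in which the Lgr5 locus drives the reporter. In the third, the irradiation cohort, Lgr5-EGFP+ cells of 4 further mice were sorted from organoids given no irradiation or 6 Gy, each with no VIP or with VIP for 48 h after that point. Each mouse gave 1 organoid line, and cells sorted from organoids represent what the gate kept at that time.

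The 31 cultures held 3722716 to 6330404 UMIs in whole organoids, 575242 to 1104126 in the sorted cells and 1075715 to 1876729 in the irradiation cohort. A UMI marks 1 captured mRNA molecule, and levels are given as CPM, a gene's UMIs scaled to a common library total after TMM normalisation. All 15 intestinal stem cell markers examined were detected in every group, and the summed immune and stromal markers stayed between 5.64 and 77.5 CPM. In whole organoids, the 2 technical libraries of VIP-treated mouse 3 differed. Over all genes, the chi-square per degree of freedom between their counts was 21.7, against 1.15 to 3.18 for the technical pairs of the 5 other cultures that have one. Library 1 differed from the library of untreated mouse 3 by 11.3, from the other VIP-treated mice by 13.2 to 24.5 and from untreated mice 1 and 2 by 19.9 to 28.2. For library 2 these values were 14.1, 4.43 to 9.60 and 2.52 to 3.43, so that it lay closest to untreated mice 1 and 2. Untreated mouse 3 itself differed from them by 12.1 to 20.5. Of the UMIs, 4.80% lay on ribosomal protein genes in library 1 and 5.94% in library 2. The main results in whole organoids are therefore also given without each of these 2 libraries.

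The sequences around the transcription starts are shown for 6 members, those that passed the test in both irradiation comparisons or for VIP in whole organoids, because TOP mRNAs are defined at their first base. Rpl3, which also passed, is named only. Each line holds 30 bases, 15 before and 15 from the start that RefSeq annotates on GRCm38.p6, on the strand of the gene. Capitals mark the longest run of pyrimidines that begins with C and has at least 5 bases.
Rps27l, plus strand, chr9:66946071-66946100: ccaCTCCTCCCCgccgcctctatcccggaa
Rpl22l1, plus strand, chr3:28805493-28805522: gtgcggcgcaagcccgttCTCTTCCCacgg
Rps18, minus strand, chr17:33955651-33955680: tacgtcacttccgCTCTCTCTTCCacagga
Rpl13, plus strand, chr8:123102335-123102364: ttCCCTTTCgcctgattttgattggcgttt
Rpl34, minus strand, chr3:130730384-130730413: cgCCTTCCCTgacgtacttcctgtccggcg
Rps4x, minus strand, chrX:102189377-102189406: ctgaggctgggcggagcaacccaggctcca
The run was 11 bases long in Rps18 and crossed the annotated start, and in Rpl22l1 it was 8 bases long and began 3 bases after it. In Rps27l, Rpl13 and Rpl34 the longest run lay before the annotated start, and in Rps4x no such run was found in this window. In Rps27l and Rpl34 a shorter run, a C with at least 4 further pyrimidines, began just after the start, which was not the case for Rpl13.

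RefSeq promoters were found for 61 members, 72 promoters in all, each 250 bases before to 50 bases after the start. A C followed by 4 letters that are each C or T, beginning within 5 bases of the start on the gene's strand, was found in 44.4% of them, against 18.3% of all 32851 promoters. With the C placed exactly on the annotated start the shares were 19.4% and 2.505%. Of the motifs searched on both strands, CCGGAAGT (an ETS core) was in 16.7% of the members' promoters against 3.89% of all, and AAGATGGCG (a YY1 core) in 8.33% against 1.403%. A palindromic CGCG element of 10 letters was in 9.72% against 0.466%. CACGTG, the E-box bound by Myc, was in 11.1% against 7.15%, a p53 half-site in 11.1% against 8.36%, and TATAAA in 11.1% against 13.6%. None of these motifs contains another. Some members had several overlapping promoters, so that the same site could be counted more than once. Counted by gene, the p53 half-site went the other way, in 8.197% of the 61 members against 9.554% of all genes. The other motifs kept their direction by gene, with AAGATGGCG in 6.557% against 1.639%. The 120 bases before the start are shown for the member that rose and for 2 that fell after irradiation, with matches to CCGGAAGT or TATAAA in capitals.
Rps27l, plus strand, chr9:66945966-66946085: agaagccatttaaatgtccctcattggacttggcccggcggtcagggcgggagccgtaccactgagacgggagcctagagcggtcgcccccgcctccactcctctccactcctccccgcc
Rpl22l1, plus strand, chr3:28805388-28805507: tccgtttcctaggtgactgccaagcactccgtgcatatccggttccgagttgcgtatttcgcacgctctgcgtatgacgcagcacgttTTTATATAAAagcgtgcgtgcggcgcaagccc
Rps18, minus strand, chr17:33955666-33955785: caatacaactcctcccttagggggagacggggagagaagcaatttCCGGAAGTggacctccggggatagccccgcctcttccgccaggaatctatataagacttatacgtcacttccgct
No searched motif was found in the Rps27l stretch. In the full promoter around the same start, CCGGAAGT began 9 bases after the first transcribed base, outside the stretch shown, and the promoter of a second RefSeq start of Rps27l, at chr9:66946163-66946462, held p53 half-sites beginning 210 and 107 bases before that start. Such matches are descriptions of the letters only.

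The UMIs of the members spanned a wide range. Over all 37 libraries, Rps14 had 247936, Rps26 had 245420 and Rps19 had 232689. Rps6, the small subunit protein phosphorylated by S6 kinase, had the fewest, 266. Ribosomal protein genes have many processed pseudogenes, and reads that fit several places are commonly set aside, so the 3′ end of each member was compared with all other annotated transcripts in windows of 65 bases, the length of the cDNA read, over the last 300 bases. For the 3 protein-coding members with no window of their own, Rpl10, Rpl36a and Rpl5, the median was 746 UMIs. It was 7204.5 UMIs for the 32 members with under 50% unique windows, 43549 for the 33 members with 50% to under 100%, and 88585 for the 12 members whose windows were all unique. Exceptions stood on both sides: Rpl35 had 4.24% unique windows and 35631 UMIs, and Rpl12 had 100% unique windows and 1828 UMIs. UMIs of different members were therefore not read as their relative mRNA levels, and values below compare 1 gene across cultures.

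**Figure D1:**
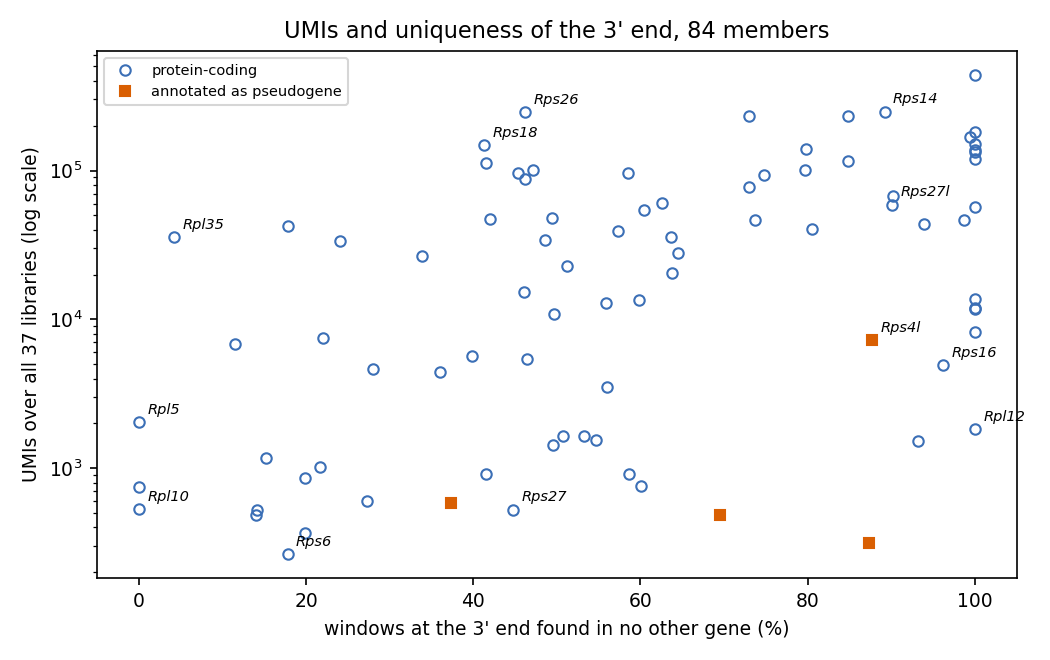
UMIs over all 37 libraries (vertical axis, log scale) against the share of 65-base windows in the last 300 bases that occur in no other gene (horizontal axis, percent); each point is 1 of the 84 members, with pseudogenes as filled squares. Rps14 lies near the top with 247936 UMIs, and Rps6 at the bottom with 266 UMIs and 17.8% unique windows.

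The paralog pairs showed the same spread of capture. Rps27l had 59043 UMIs and 90.1% unique windows, and Rps27 had 526 UMIs and 44.8%. Rpl22 and Rpl22l1 had 43549 and 33706 UMIs, with 93.9% and 24.1% unique windows. Rpl7l1 had 11679 UMIs against 4661 for Rpl7, and Rps4l had 7262 against 96503 for Rps4x. The low capture of Rps27, Rps6 and Rpl10 left little to test for them in any comparison.

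The share of UMIs on the 84 members measured how much of the counted mRNA was assigned to these genes. Reads that fit several places may be missing from it, and some members are pseudogenes. The share is therefore not the fraction of mRNA that encodes ribosomal proteins. In untreated whole organoids it was 5.55%, 5.86% and 5.77% in mice 1, 2 and 3, and with VIP it was 5.03%, 4.91%, 5.24% and 4.97% in mice 1 to 4. The groups did not overlap, and the share was lower with VIP in each of the 3 mice with both cultures, by 0.18 on average on the log2 scale (SD 0.07, n = 3). In bulk samples such as these, fewer cells of a type and less RNA per cell cannot be told apart. The large subunit share was 2.59% ± 0.12 (SD, n = 3) in untreated and 2.25% ± 0.05 (SD, n = 4) in VIP-treated organoids, and the small subunit share was 3.14% ± 0.07 and 2.79% ± 0.10. Without library 2 of VIP-treated mouse 3 the share of that culture was 4.80%, the groups still did not overlap, and the difference was -0.22 (SD 0.07, n = 3). Without library 1 it was 5.94%, above every untreated culture, the groups overlapped, and the difference was -0.12 (SD 0.15, n = 3), lower in 2 of 3 mice.
In sorted Lgr5-EGFP+ cells, the share was 10.6%, 11.7%, 14.0% and 13.5% without VIP and 11.8%, 11.1%, 11.3% and 12.03% with VIP. The VIP values lay within the range of the untreated ones, and the within-mouse log2 difference was -0.10 (SD 0.20, n = 4), higher with VIP in 1 of 4 mice.

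In the irradiation cohort without irradiation, the share was 6.89%, 7.57%, 9.26% and 8.002% untreated and 8.46%, 7.47%, 7.40% and 7.78% with VIP. After 6 Gy it was 6.93%, 7.001%, 6.61% and 6.88% untreated and 6.71%, 6.68%, 6.94% and 7.06% with VIP, so that all 8 irradiated cultures lay between 6.61% and 7.06%. In VIP-treated cells the irradiated and the non-irradiated cultures did not overlap, with a within-mouse log2 difference of -0.18 (SD 0.11, n = 4), lower in each mouse. In untreated cells they overlapped: the difference was -0.20 (SD 0.21, n = 4), and mouse 1 was higher by 0.008. After irradiation, VIP-treated and untreated cells differed by -0.001 (SD 0.07, n = 4). Without Rps24 and Rps26, which stood high in single cultures, the irradiation difference in untreated cells was -0.19 and 0 of 4 mice were higher. Mouse 1 was practically unchanged, at 6.347% without and 6.346% with irradiation. This removal was chosen after seeing the data.

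**Figure D2:**
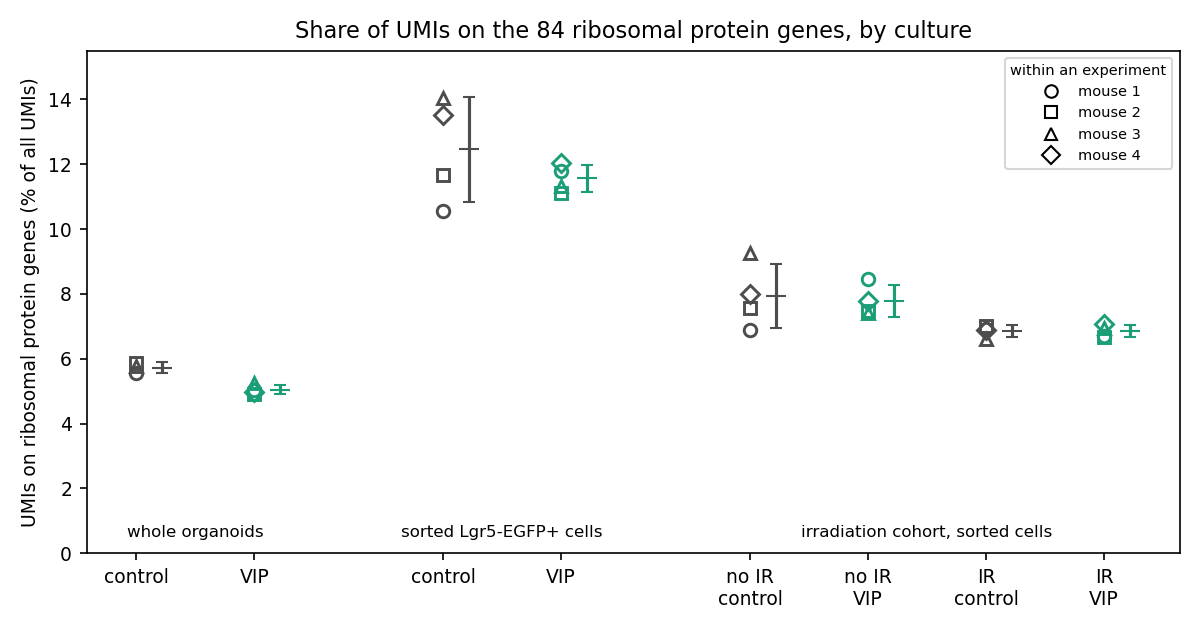
UMIs on the 84 ribosomal protein genes as a percentage of all UMIs (vertical axis, from 0) in each of the 31 cultures by group; symbols give the mouse within an experiment, and bars give the mean and SD of the group. Whole organoids lie between 4.91% and 5.86%, with VIP below control, sorted cells between 10.6% and 14.0%, and the irradiated cultures between 6.61% and 7.06%.

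For VIP in whole organoids, the question was whether treatment shifted ribosomal protein mRNAs together and which single genes moved. All 84 members could be tested with edgeR's quasi-likelihood test with the mouse as a block, adjusted by Benjamini-Hochberg over all 12727 genes tested. With VIP, 2 members fell and 0 rose, where 1.10% of all genes fell and 3.72% rose. Rpl34, a large subunit protein, was at 1179.9, 1528 and 1458 CPM in untreated mice 1, 2 and 3. With VIP it was at 1038, 969, 1137 and 1074 CPM in mice 1 to 4, below every untreated culture, and it fell by 0.40 on the log2 scale (SE 0.10, adjusted p = 0.0306, lower in 3 of 3 mice). In untreated mouse 2, however, its 2 technical libraries were at 2025 and 1177 CPM, and without the higher one the difference was -0.25 (adjusted p = 0.11).
Rps4x, the X-linked small subunit protein, was at 1019.6, 882 and 1326 CPM without VIP and 739.8, 760.5, 1065 and 1097 CPM with VIP. The groups overlapped, while within mice it was lower in 3 of 3, at -0.33 on the log2 scale with an SE of 0.09 (adjusted p = 0.0434). Of 14 alternative settings, the call of Rpl34 was lost in 8 and that of Rps4x in 7, among them without mouse 1, without mouse 2, without library 1 of VIP-treated mouse 3 and without the mouse block.

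Across all members in whole organoids, the log2 fold changes lay mostly on one side. Values were below 0 for 75 of 84 members (89.3%), where 50.7% of all genes were below 0, and their median was -0.185 against -0.004. At an unadjusted p under 0.05, 29 members were lower and 0 higher, where 6.49% and 9.93% of all genes were. For 23 members the VIP-treated and untreated cultures did not overlap, lower with VIP, where this held for 4.08% of genes. Within mice, the median of the members minus that of all genes was -0.17 (SD 0.08, n = 3), below 0 in each of the 3. Large and small subunit members had medians of -0.187 and -0.175. 
The counts in whole organoids moved with single libraries and mice, as did those of all genes. Without library 2 of VIP-treated mouse 3, 18 members fell and 0 rose, where 3.48% of all genes fell and 6.46% rose. Without library 1 of that culture 0 members were called, and 0% of all genes were. Without mouse 3, 16 members fell and 1 rose, where 4.49% of genes fell and 8.34% rose. Without mouse 1 there was 1 call and without mouse 2 there were 0, where 2.94% and 2.84% of genes were called. The median of the members was -0.205 without library 2 and -0.154 without library 1, against -0.017 and 0.001 for all genes. Values were below 0 for 72 and 74 members. The groups did not overlap, lower with VIP, in 21 members without library 2 and 8 without library 1, where this held for 4.30% and 2.9965% of genes.

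Among the members named by role in whole organoids, none besides Rpl34 and Rps4x was called. The stalk proteins, which recruit elongation factors to the ribosome, had log2 fold changes of -0.16 (Rplp0), -0.22 (Rplp1) and -0.18 (Rplp2), with adjusted p of 0.389, 0.210 and 0.320. Rps19, whose human counterpart is mutated in Diamond-Blackfan anaemia, was at -0.26 (adjusted p = 0.105). Rpl5 and Rpl11, which form the 5S particle that binds Mdm2, were at -0.21 and -0.23 (adjusted p of 0.511 and 0.222). Rpsa was at -0.13 (adjusted p = 0.559), Rpl3 at -0.27 (0.108), and Rpl22l1 and Rpl22 at -0.22 and -0.14 (0.197 and 0.493). Rps27l was close to 0, at -0.01 (SE 0.09, adjusted p = 0.963). It was at 617, 588 and 763 CPM without VIP and 655, 614.0, 666 and 619.6 CPM with VIP, so that the groups overlapped and the sign changed with single libraries. Without library 2 of VIP-treated mouse 3, Rplp1 (-0.28), Rps19 (-0.30), Rpl3 (-0.32) and Rpl22l1 (-0.25) also passed, with adjusted p from 0.0164 to 0.0357. Without library 1 no member passed.

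In the same whole organoids, lists linked to the ribosome were read beside the members. A TOP list held 18 translation factors and other genes whose mRNAs are also of the TOP class, the others including Naca, Npm1 and Hnrnpa1. Of these 18 genes none was called and 16 were below 0, with a median of -0.167, Eef2 being at -0.30 (adjusted p = 0.0617). Of 46 tested ribosome biogenesis factors none was called and 41 were below 0 (median -0.125), and of 77 tested mitochondrial ribosomal protein genes none was called and 62 were below 0 (median -0.092). Of 12 snoRNA host genes, 1 was called: Gas5, a non-coding TOP transcript, fell by 0.35 (adjusted p = 0.0309). Of 22 Myc and mTORC1 regulators 1 rose, and of 19 RNA polymerase I genes and 11 ribosome surveillance genes none was called. Goblet cell markers moved with VIP in these cultures: 8 of 10 rose, and their sum was 5837 to 8070.4 CPM in untreated and 8630.0 to 10541 CPM in VIP-treated organoids, with 1 of 11 listed markers untested. Of 13 dissociation and stress genes, 7 rose. Without library 2 of VIP-treated mouse 3, 6 genes of the TOP list and 3 biogenesis factors fell and 9 goblet markers rose. Without library 1 no gene of any of these lists was called. The part of the goblet and stress genes in the members' shift was not tested.

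In sorted Lgr5-EGFP+ cells treated for 72 h, no member was called with edgeR, and 0 with DESeq2. Here 80 members could be tested, without Rpl10, Rpl24, Rpl28 and Rpl32l, and 0.0885% of all 6778 genes were called with edgeR and 0.0295% with DESeq2. At an unadjusted p under 0.05, 2 members were higher and 2 lower, where 2.95% and 2.55% of genes were. Their median log2 fold change was -0.055 against -0.002 for all genes, and 51 were below 0, where 50.3% of genes were. The within-mouse median was below 0 in 2 of 4 mice, with a mean of -0.06 and an SD of 0.34. The smallest p was that of the pseudogene Rps4l, at 126, 140.4, 108 and 133 CPM without VIP and 134, 198, 198 and 174 CPM with VIP, with a log2 fold change of 0.45 with an SE of 0.16 (adjusted p = 0.831, higher in 4 of 4 mice). Rps6 was at 0.71 (SE 0.34, adjusted p = 0.885), from 9.18 to 20.5 CPM without and 17.1 to 30.7 CPM with VIP.
The difference of the VIP effect between sorted cells and whole organoids was tested in 1 fit of both experiments. None of 83 tested members was called with edgeR, and 0 with DESeq2, where 0.147% and 0.412% of genes were, and 1 was higher and 0 lower at an unadjusted p under 0.05, where 2.79% and 3.46% of genes were. The median of the difference over the members was 0.127 (sorted minus whole) against 0.012 for all genes, and 14 members were below 0, where 48.3% of genes were. The experiments used different mice and library batches.

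In the irradiation cohort, VIP was compared with no VIP without and with irradiation. Both comparisons had 81 tested members, without Rpl32l, Rps3a2 and Rps6, and no member was called with edgeR, where 0.742% of 9976 genes were called without irradiation and 0.221% after it. With DESeq2, 3 members were called without irradiation, 2 higher and 1 lower, where 2.10% of the 2433 genes to which it gave an adjusted p were higher and 0.945% lower. After irradiation DESeq2 called 0 members, where 0.120% of genes were called. At an unadjusted p under 0.05, 14 members were higher and 3 lower with VIP without irradiation, where 6.67% and 5.73% of genes were, and after irradiation 5 were higher and 3 lower, where 2.83% and 2.92% were. The medians of the members were 0.047 without and 0.026 with irradiation, against -0.003 and -0.002 for all genes. Values were below 0 for 33 members without and 35 with irradiation, where 50.5% and 50.6% of genes were.

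The nearest to the threshold without irradiation was Rps27l, the paralog of Rps27 that is known as a p53 target. In untreated cells of mice 1 to 4 it was at 1125, 1044, 1126 and 978 CPM, and with VIP it was at 895, 803, 1030.1 and 834 CPM. It was lower with VIP in 4 of 4 mice while the groups overlapped, and the log2 fold change was -0.26 with an SE of 0.06 (adjusted p = 0.0519), which did not pass. It passed in 5 of the alternative settings, among them DESeq2's Wald test. In the same cells 2 of 19 p53 response genes fell with VIP, Cdkn1a by 0.57 (adjusted p = 0.00497) and Bbc3 by 0.61 (adjusted p = 0.032), and 17 were below 0. Next in order of p, and named after their values were seen, were Rpl38 at 0.34, Rps3a1 at 0.29, Rpl30 at 0.43 and Rps2 at 0.31, with adjusted p of 0.0839, 0.0845, 0.0948 and 0.0991, each higher with VIP in 4 of 4 mice. Rplp2 was at 0.22 (adjusted p = 0.111) and Rpl7 at 0.36 (adjusted p = 0.147). Between these 2 in order of p, and also named after its values were seen, Rps3 went the other way. It was at -0.28 (adjusted p = 0.116), lower with VIP in 4 of 4 mice and with no overlap of the groups. After irradiation the smallest p was that of Rpl7, from 34.9, 53.9, 41.5 and 44.7 CPM to 53.4, 62.9, 54.2 and 68.2 CPM with VIP, with a log2 fold change of 0.46 with an SE of 0.12 (adjusted p = 0.16, higher in 4 of 4 mice).

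Irradiation with 6 Gy was compared with none in each arm of the cohort. In untreated cells 1 member rose and 6 fell, where 2.87% of all genes rose and 1.59% fell. In VIP-treated cells 1 rose and 17 fell, where 4.32% rose and 3.46% fell. Rps27l was the member that rose in both. The members that fell in untreated cells were Rpl3, Rps18, Rpl22l1, Rpl13, Rpl26 and Rpl32, and 4 of these 6 (66.7%) also fell in VIP-treated cells, where they made up 23.5% of the 17. All 17 members that fell in VIP-treated cells were below 0 in untreated cells, with log2 fold changes from -0.38 to -0.13 there, and 14 of them had an unadjusted p under 0.05. These 2 comparisons share no cultures, although they share the mice and 1 fit. How often all genes that fell agreed between the arms is not given here, so this agreement is not read as particular to the members.

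**Figure D3:**
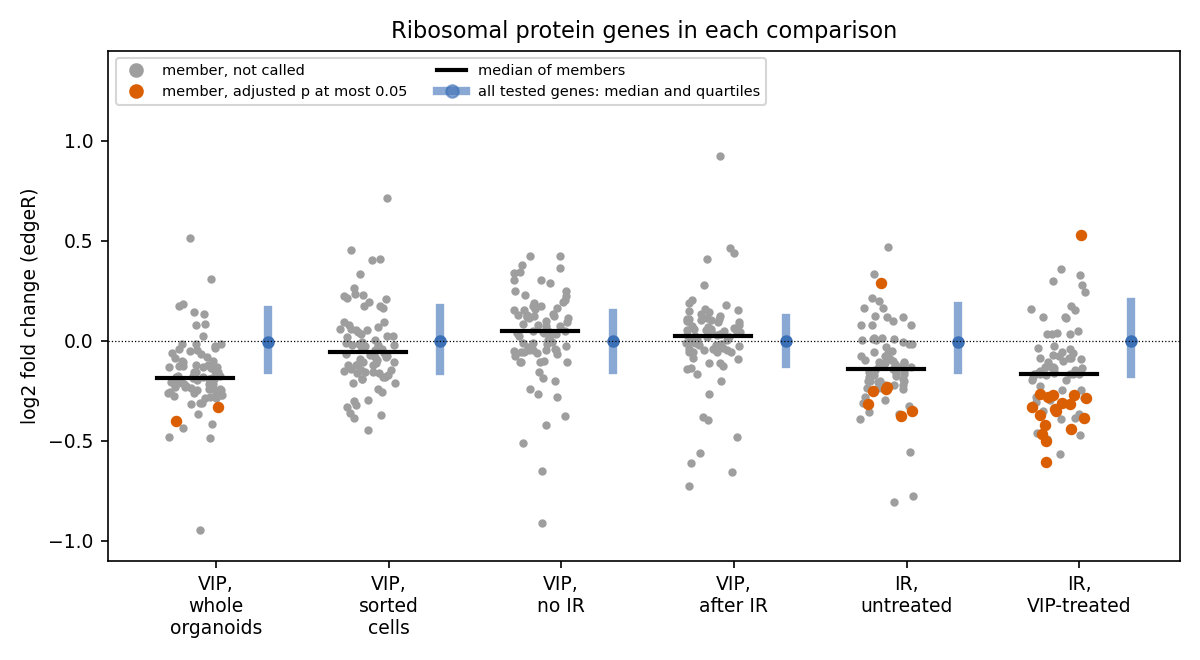
Log2 fold change (vertical axis) of each tested ribosomal protein gene in the 6 comparisons: VIP against control in whole organoids, in sorted cells, without and after irradiation, and irradiation (IR) against none in untreated and VIP-treated cells. Orange points passed an adjusted p of 0.05, black lines are the medians of the members, and blue bars give the median and quartiles of all genes tested. The medians lie at -0.185, -0.055, 0.047, 0.026, -0.143 and -0.165.

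Over all 81 tested members, irradiation gave a median log2 fold change of -0.143 in untreated and -0.165 in VIP-treated cells, against -0.004 and 0.001 for all genes. Values were below 0 for 61 members (75.3%) in untreated and 64 (79.0%) in VIP-treated cells, against 50.7% and 49.8% of all genes. They were below 0 in both arms for 50 members, a count given without a share of all genes. At an unadjusted p under 0.05, 31 members were lower in each comparison, where 7.79% of genes were lower in untreated and 11.0% in VIP-treated cells, and 1 member was higher, where 8.93% and 10.7% of genes were. Irradiated cultures lay below all others of their arm in 5 members in untreated cells and 29 in VIP-treated cells, where this held for 3.84% and 6.53% of genes, and above them in 1 member each, where it held for 4.64% and 6.26%. The within-mouse shift of the members against all genes was -0.14 (SD 0.11, n = 4) in untreated and -0.19 (SD 0.10, n = 4) in VIP-treated cells, below 0 in 4 of 4 mice each. Large subunit members made up 5 of the 6 falls in untreated cells and 10 of the 17 in VIP-treated cells, of 48 large and 33 small subunit members tested. The counts moved with single mice. In untreated cells, where 7 members were called, 17 were called without mouse 1, 1 without mouse 3 and 0 without mouse 4, where 6.47%, 2.11% and 1.76% of all genes were. In VIP-treated cells, where 18 were called, 10 were called without mouse 2 and 12 without mouse 4, where 4.72% and 4.26% of all genes were.

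Rps27l rose with irradiation. In untreated cells it was at 1348, 1314, 1302 and 1240.5 CPM after 6 Gy in mice 1 to 4, above every non-irradiated culture, which had reached 1126 CPM at most. The log2 fold change was 0.29 with an SE of 0.06 (adjusted p = 0.00741, higher in 4 of 4 mice), and it no longer passed without mouse 2 (0.27) or without mouse 4 (0.27). In VIP-treated cells it was at 1285, 1239.9, 1319 and 1284 CPM after 6 Gy, again with no overlap, and the log2 fold change was 0.53 with an SE of 0.06 (adjusted p = 3.83e-06, higher in 4 of 4 mice). It passed in all 11 alternative settings there, between 0.50 and 0.60. The difference between the 2 irradiation effects was 0.24 (SE 0.09, unadjusted p = 0.0135, adjusted p = 0.687), which did not pass. Its partner Rps27 was at 5.65 to 9.39 CPM in non-irradiated and 6.04 to 10.6 CPM in irradiated untreated cells (log2 fold change 0.20, SE 0.30, adjusted p = 0.82). Rps27l lies on chromosome 9 at 66946086 to 66949516 (GRCm38, plus strand).

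Beside this rise, the p53 response list moved in the same cells. Of its 19 tested genes, 15 rose in untreated and 16 in VIP-treated cells, with medians of 0.926 and 1.295, and their summed level was 1376 to 1515 CPM in untreated non-irradiated and 2283 to 2817 CPM in untreated irradiated cells. Cdkn1a, the cell cycle inhibitor p21, rose by 1.15 and 1.75 on the log2 scale (adjusted p of 6.06e-08 and 2.37e-11), and Phlda3, an Akt repressor, rose by 1.34 and 1.83. Rps27l is not on that list.

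Rpl22l1, the paralog of Rpl22, fell with irradiation. It was at 494, 493, 595 and 561 CPM in non-irradiated untreated cells and 479, 425, 386 and 427 CPM after 6 Gy, so that the groups did not overlap. The log2 fold change was -0.32 with an SE of 0.08 (adjusted p = 0.0146, lower in 4 of 4 mice), and without mouse 3 (-0.21) or mouse 4 (-0.29) it no longer passed. With VIP it was at 583, 547, 567 and 585 CPM without irradiation and 504, 436, 454 and 412 CPM after it (log2 fold change -0.34, SE 0.08, adjusted p = 0.00492), which no longer passed without mouse 4. Rpl22 was at -0.20 (SE 0.06, adjusted p = 0.0725) in untreated and -0.09 (SE 0.06, adjusted p = 0.467) in VIP-treated cells, and neither passed. For both genes the values were lower in 4 of 4 mice in each arm.

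Rpl3, a protein of the core of the large subunit, was at 652, 921, 927 and 971 CPM in non-irradiated untreated cells, with mouse 1 far below the others. After 6 Gy it was at 602, 664, 686 and 709 CPM, which overlapped with mouse 1 alone, and it fell by 0.38 (SE 0.09, adjusted p = 0.0138, lower in 4 of 4 mice). In VIP-treated cells it was at 975, 965, 927 and 889.7 CPM without and 647.5, 547, 759 and 709.9 CPM with irradiation, with no overlap, and it fell by 0.50 (SE 0.09, adjusted p = 0.000722). The call in untreated cells was lost without mouse 2, 3 or 4 (-0.34, -0.35 and -0.35), and in VIP-treated cells it held in all 11 settings.
Rps18, a protein of the small subunit head, was at 2159, 2743, 3135 and 3063 CPM in non-irradiated untreated cells, again lowest in mouse 1. After 6 Gy it was at 1869, 2349.6, 2029.8 and 2399.98 CPM, which overlapped with mouse 1 (log2 fold change -0.35, SE 0.08, adjusted p = 0.00863). With VIP it was at 2770.1, 2913, 2814 and 2876 CPM without and 2029, 1867, 2278 and 2347 CPM with irradiation, where the groups did not overlap (log2 fold change -0.42, SE 0.08, adjusted p = 0.00122). It was lower in 4 of 4 mice in each arm, and without mouse 3 (-0.26) or mouse 4 (-0.35) the call in untreated cells was lost.

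Rps4x showed the largest fall in VIP-treated cells, where it was called, and not in untreated cells. With VIP it was at 2689, 1530.3, 2297 and 2042 CPM without and 1499.6, 961, 1669 and 1562 CPM after irradiation. The groups overlapped, while it was lower in 4 of 4 mice, with a log2 fold change of -0.60 with an SE of 0.13 (adjusted p = 0.0036). In untreated cells it was at 1227, 1415, 2362 and 2008 CPM without and 1292, 1339, 1641 and 2059 CPM with irradiation (log2 fold change -0.13, SE 0.13, adjusted p = 0.685). The difference between the 2 irradiation effects was -0.47 (SE 0.18, unadjusted p = 0.0166, adjusted p = 0.687), which did not pass. Without the mouse block the call in VIP-treated cells was lost. Rpl36 also fell in VIP-treated cells (-0.47, adjusted p = 0.00852, lower in 4 of 4 mice). Other falls there ranged from Rps2 at -0.39 to Rplp0 at -0.27, and included Rpl13 and Rplp2.

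**Figure D4:**
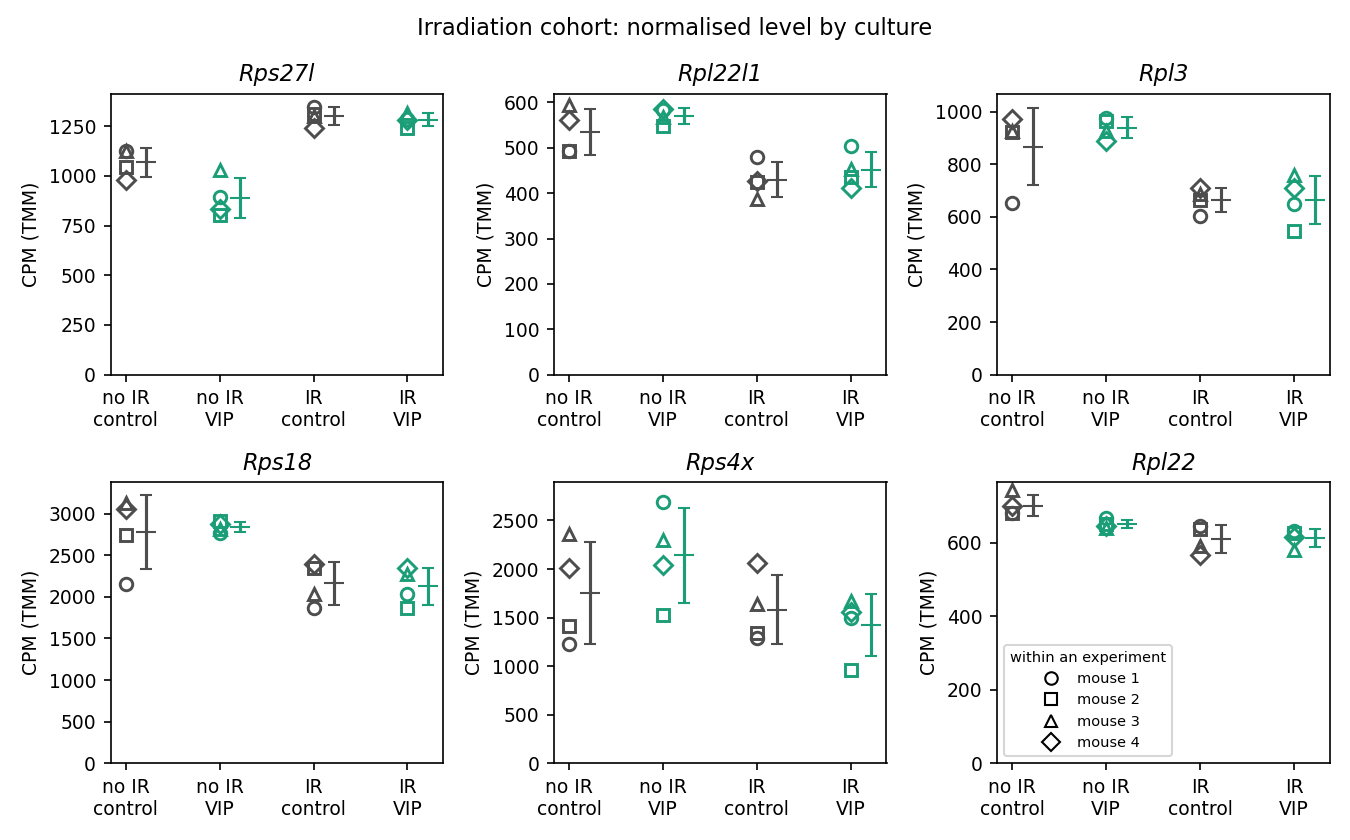
TMM-normalised CPM (vertical axes, from 0) of 6 ribosomal protein genes in the 4 groups of the irradiation cohort; symbols give the mouse, and bars give mean and SD. Rps27l is higher after irradiation, Rpl22l1, Rpl3 and Rps18 are lower, Rps4x differs widely between mice, and Rpl22 lies between 565 and 743 CPM throughout.

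Of the members named by role, the stalk proteins were lower after irradiation in each mouse. In VIP-treated cells Rplp2 was at 514.7 to 586 CPM without and 425 to 472 CPM with irradiation and fell by 0.28 (SE 0.07, adjusted p = 0.00822). Rplp0 was at 2439 to 2622 CPM without and 1913 to 2269.96 CPM with irradiation and fell by 0.27 (SE 0.07, adjusted p = 0.0204). Neither pair of groups overlapped. Rplp1 was at -0.17 (adjusted p = 0.119), and in untreated cells the 3 were at -0.16 (Rplp0), -0.16 (Rplp1) and -0.21 (Rplp2), with adjusted p of 0.248, 0.197 and 0.0855. The call of Rplp0 was lost without the mouse block and without mouse 2, 3 or 4, and that of Rplp2 without mouse 4.
Other named members did not pass. Rps19 was at -0.18 in untreated and -0.17 in VIP-treated cells (adjusted p of 0.136 and 0.13). Rpl5 was at -0.01 and -0.05 (adjusted p of 0.983 and 0.898), Rpl11 at 0.00 and -0.30 (0.998 and 0.161), and Rpsa at 0.01 and -0.17 (0.99 and 0.284). Rpl39 was at 0.08 and -0.10 (0.86 and 0.771), Rpl7l1 at 0.01 and 0.12 (0.961 and 0.377), Rpl7 at -0.23 and -0.14 (0.353 and 0.534), and Rpl10 at 0.01 and 0.36 (0.996 and 0.659). Rps4l was at 0.08 and -0.03 (0.732 and 0.901), and Rps6 could not be tested.

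The interaction of VIP and irradiation tested whether the irradiation effect differed with VIP. No member was called with edgeR, and 0 with DESeq2, where 0% of all genes was called by either. With edgeR, 4 members were higher and 3 lower at an unadjusted p under 0.05, where 3.11% and 3.25% of genes were. The interaction shares its groups with the VIP and irradiation comparisons. The difference (VIP-treated minus untreated) was below 0 for 50 of 81 members (61.7%), where 49.1% of genes were, and the median was -0.053 against 0.006 for all genes.

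The lists linked to the ribosome were also read after irradiation. Of the 18 genes of the TOP list, 2 fell in untreated cells, Naca by 0.30 (adjusted p = 0.0369) and Eif3f by 0.23 (adjusted p = 0.0409). In VIP-treated cells 3 fell, Naca by 0.34, Eif3e by 0.23 and Eef1g by 0.23 (adjusted p of 0.00984, 0.0253 and 0.0306). Naca is on that list without being a translation factor. Of 46 ribosome biogenesis factors none was called in either arm, with medians of 0.020 and 0.014. Of 77 mitochondrial ribosomal protein genes 1 fell in each, Mrpl14 and Mrpl37, with medians of -0.057 and 0.000. Fau, which encodes a ribosomal protein fused to a ubiquitin-like part, fell by 0.67 in VIP-treated cells (adjusted p = 0.0171). Of 12 snoRNA host genes Gas5 fell by 0.25 in untreated cells (adjusted p = 0.0319), and Snhg15 and Snhg12 rose by 0.45 and 0.70 in VIP-treated cells (adjusted p of 0.0154 and 0.0495).

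Cell type markers moved with irradiation in the sorted cells. All 10 tested Paneth cell markers rose in both arms, and their sum was 10144 to 14811 CPM in non-irradiated and 14854 to 29029 CPM in irradiated untreated cells, and 8669.9 to 9917 and 14888 to 16981 CPM in VIP-treated cells. Of 11 enteroendocrine markers 6 rose in untreated and 10 in VIP-treated cells. Of 14 tested enterocyte markers 6 rose in untreated and 2 in VIP-treated cells, with medians of 0.905 and 0.557, and of 10 tested goblet markers 6 and 4 rose, with medians of 0.572 and 0.548. The summed enterocyte markers were 2001 to 2560 CPM without and 2437 to 4445 CPM with irradiation in untreated cells, and 1563 to 1959 and 2059 to 2306 CPM in VIP-treated cells. The summed goblet markers were 5767 to 8951 and 7682 to 10999.7 CPM in untreated cells, and 5083 to 5749 and 7009 to 9060 CPM in VIP-treated cells. Of 14 tested stem cell markers 2 fell in untreated cells, and 3 fell and 2 rose in VIP-treated cells. The summed stem cell markers were 4085 to 5232 CPM without and 3147 to 3677 CPM with irradiation in untreated cells. Over the 14 tested stem cell markers the median was -0.044 in untreated and -0.272 in VIP-treated cells, with 7 and 9 below 0. Of 14 cycling cell markers 1 rose in untreated cells and 2 fell in VIP-treated cells. The part of these markers in the changes of the ribosomal protein genes was not tested.

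Some members varied strongly between cultures of 1 group. Rps24, Rps26, Rps28 and Rpl37 were chosen for this after their values were seen. Rps26 was at 9774 CPM in non-irradiated untreated cells of mouse 3, where the other 3 mice had 3149 to 3843 CPM, and at 7548 CPM in sorted untreated cells of mouse 2. Rps24 was at 5529.6 CPM in non-irradiated VIP-treated cells of mouse 1, where the other 3 had 1702 to 2198 CPM. It was also high in non-irradiated untreated cells of mouse 3 (5390.2 CPM), irradiated untreated cells of mouse 4 (5025 CPM) and sorted untreated cells of mouse 4 (6209 CPM). In irradiated untreated cells of mouse 1, Rps28 was at 1635 CPM and Rpl37 at 2555 CPM, against 651 to 679 and 1706 to 1786 CPM in the others. None of the 4 genes was called in any comparison. With irradiation in untreated cells Rps26 was at -0.81 (SE 0.25, adjusted p = 0.0642), lower in 4 of 4 mice with no overlap. It passed in 3 of 11 alternative settings, over which it ran from -1.02 to -0.29. With VIP in whole organoids Rpl37 was at -0.48 (SE 0.16, adjusted p = 0.123), lower in 3 of 3 mice with no overlap. It passed in 3 of 14 settings, over which it ran from -0.69 to -0.05. For comparison, the coefficient of variation within a group had a median over members from 8.14% in non-irradiated VIP-treated to 20.2% in sorted untreated cells.

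**Figure D5:**
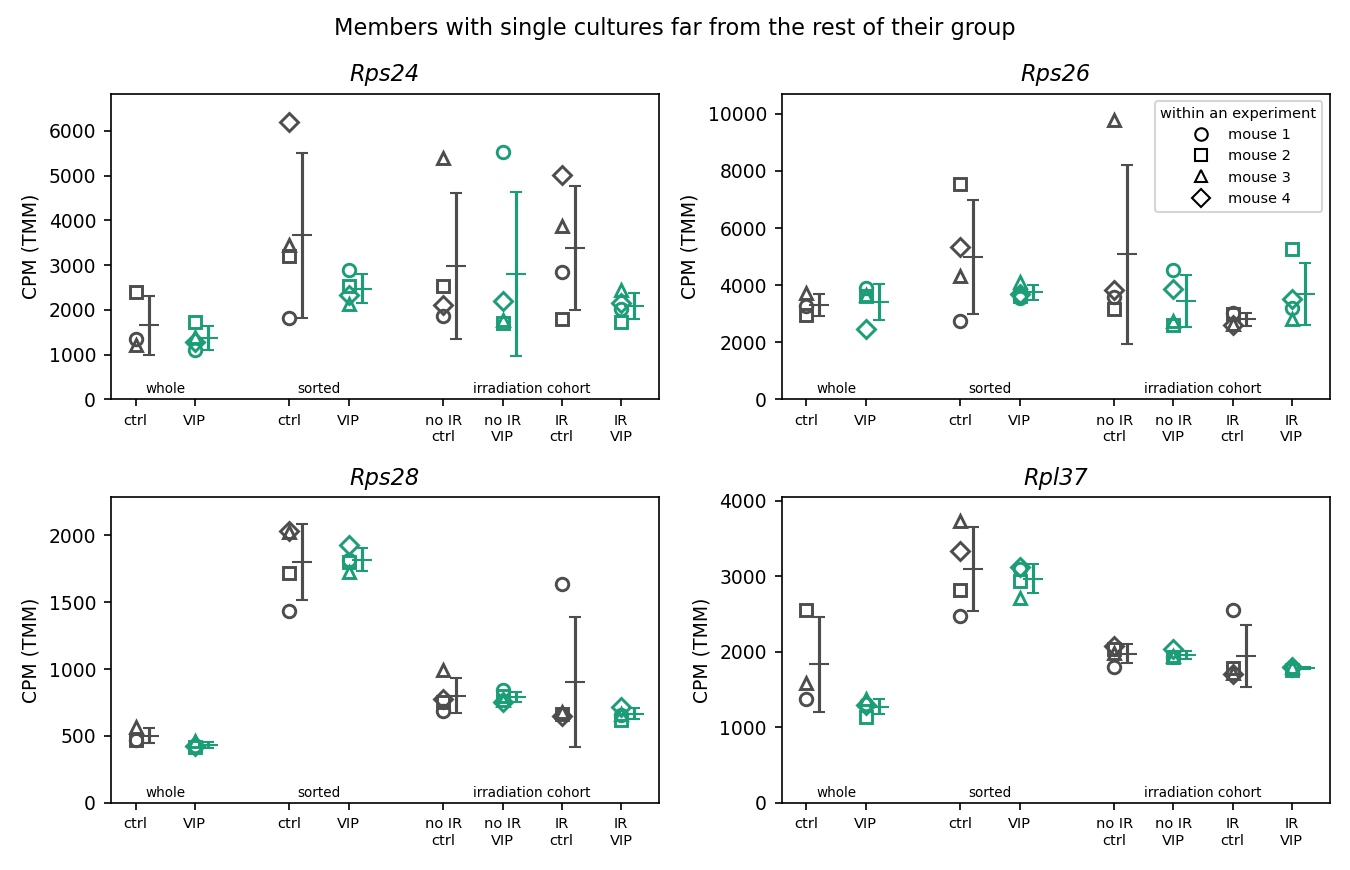
TMM-normalised CPM (vertical axes, from 0) of Rps24, Rps26, Rps28 and Rpl37 in every group; symbols give the mouse within an experiment, and bars give mean and SD. Single cultures stand far above the rest of their group, such as Rps26 at 9774 CPM and Rps28 at 1635 CPM.

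Technical libraries of the same culture in whole organoids showed the same behaviour. Among members with at least 100 CPM in both libraries, 15 of 300 pairs (5.0%) differed by more than 1.5 times, against 2.64% of 11177 pairs of other genes, thresholds chosen after seeing the data. In untreated mouse 2 it was 5 of 49 members (10.2%) against 0.265% of other genes, and in VIP-treated mouse 2 it was 6 of 50 (12%) against 0.208%. In VIP-treated mouse 3, whose 2 libraries differed over all genes, it was 2 of 50 members (4.0%) against 15.6%. Rpl37 was at 1199 and 3821 CPM in the 2 libraries of untreated mouse 2, and Rps15a at 1326 and 447.5 CPM in those of VIP-treated mouse 2. Rpl35a was at 338 and 939 CPM in the latter. The labels give such libraries the same mouse and treatment and a technical replicate number. They do not say whether both came from 1 culture or 1 RNA sample, and they are treated here as libraries of 1 culture.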

How the data were processed

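The authors reverse-transcribed poly(A) RNA with barcoded oligo-dT primers, sequenced the 3′ ends and ran the Drop-seq pipeline against GRCm38, the build named in the submitters' processing notes. The deposited tables (3, with 37 columns) hold UMI counts for each gene in each library, not normalised, and 0 columns could not be assigned to a sample. Doses and times come from the study's methods. Technical libraries of a culture were summed, leaving 31 cultures. Counts were fitted with edgeR 4.0.16 in R 4.3.3 (TMM, filterByExpr by group, quasi-likelihood test, mouse as a block, Benjamini-Hochberg over all genes tested, threshold 0.05), 1 fit per experiment and 1 for both VIP experiments together. Mouse 4 of the whole organoids has no untreated culture and adds nothing to that fold change. The pairing is the mouse number in the labels. Same-mouse deviations correlated at 0.294 to 0.661 in whole organoids, 0.031 to 0.208 in sorted cells and -0.069 to 0.157 in the irradiation cohort. For different mice the ranges were -0.569 to 0.353, -0.138 to 0.139 and -0.202 to 0.202. The ranges overlapped in each experiment, and in the irradiation cohort the same-mouse values lay within the different-mouse range. There the correlations do not show the pairing, which rests on the labels. The fits were tested on simulated data. No deposited libraries were identical.

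Alternatives were RLE or library-size scaling, TMM without ribosomal protein genes, all genes, DESeq2 1.42.0, no replicate block, only the groups compared, and leaving out each mouse or technical library. Gene positions are from a GENCODE annotation of the same build, promoters from RefSeq (GRCm38.p6). Members and lists were chosen with earlier results of these data known. Genes named are all called members where 12 or fewer, otherwise the 5 largest rises and 5 largest falls with the same direction in every mouse, a panel of paralogs, stalk, 5S particle genes, Rps6, Rpsa and Rps19, and for other lists the 3 genes with the smallest p; others are said to be chosen after their values were seen. Some members that this rule would name are not reported here. Lists are described by counts and medians with no test. UMI depth limits the precision of low members.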

Additional observations from a re-analysis of the deposited data

Results flagged for a closer look

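In groups of 4 cultures, the highest or lowest culture was compared with the rest by Dixon's ratio at its critical value for 4 samples for 29 named genes and the ribosomal protein share, 210 tests in 7 groups, of which 11 exceeded it; chance alone exceeds it in about 1 in 20. In sorted cells, Rpl18 was highest in VIP-treated mouse 2 (705.44 CPM, others 599.83 to 611.28) and Rpl26 lowest in untreated mouse 1 (2262.45 CPM, others 3835.43 to 4119.54). In irradiated untreated cells of mouse 1, Rpl37 (2554.74 CPM, others 1706.16 to 1786.39) and Rps28 (1634.73 CPM, others 650.98 to 679.18) were highest. In non-irradiated VIP-treated cells, Rplp1 was highest in mouse 2 (1744.85 CPM, others 1692.64 to 1699.23) and Rps24 in mouse 1 (5529.57 CPM, others 1701.95 to 2197.95). In non-irradiated untreated cells, Rpl3 was lowest in mouse 1 (651.71 CPM, others 921.25 to 970.97) and Rps26 highest in mouse 3 (9773.86 CPM, others 3149.26 to 3843.27). In VIP-treated whole organoids of mouse 2, Rpl32 (2325.97 CPM, others 2703.82 to 2774.94) and Rpl7 (43.92 CPM, others 52.68 to 54.04) were lowest and Rps15a was highest (831.1 CPM, others 519.33 to 562.28).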

How the results depend on the processing

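The median log2 fold changes of the members moved by less than the spread between mice under every alternative. Counts of called members moved more. The share of all genes called also moved with the setting. For VIP in whole organoids it was 0% without technical library 1 of VIP-treated mouse 3. Without mouse 3, 8.34% of genes rose and 4.49% fell. Where no such share is given for a setting, its count describes the setting and is not read as a result about the members. For VIP in whole organoids, where 2 were called, the count was 0 with library size only, with DESeq2, without the replicate block and without technical library 1 of VIP-treated mouse 3, 1 without technical library 1 of untreated mouse 2, 12 with all genes, 18 without technical library 2 of VIP-treated mouse 3, and from 0 to 17 when 1 mouse was left out. For VIP without irradiation, where 0 were called, it was 1 with RLE factors or TMM without ribosomal protein genes, 3 with DESeq2, 6 with only the 2 groups compared and 8 with all genes; after irradiation it was 1 with only the 2 groups and 3 with all genes. For irradiation in untreated cells, where 7 were called, it was 4 with only the 2 groups, 24 with all genes and from 0 to 17 when 1 mouse was left out; in VIP-treated cells, where 18 were called, it was 30 with all genes and from 10 to 22 when 1 mouse was left out. Without the replicate block the counts were 5 and 14. The interaction with irradiation gave 3 with all genes. Rps27l in whole organoids changed sign, from -0.0144 to 0.0917 with the first technical library only and 0.0203 without technical library 2 of VIP-treated mouse 3, and ran from -0.0661 to 0.0752 when 1 mouse was left out. Of the single genes followed, 448 values stayed on their side of the threshold, 60 lost it and 21 passed it. The cause of these moves was not tested. Depth limits members with few UMIs, such as Rps6, Rpl10 and Rps27.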
